A study of Mus musculus with 6 samples.

Results

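The *Id* genes *Id1*, *Id2*, *Id3* and *Id4* were followed in tail tip fibroblasts of newborn mice, with or without a targeted disruption of *Hotair*, a long noncoding RNA of the Hoxc cluster. The members were all probe sets that the platform annotation names for these genes, 8 probe sets for 4 genes, among 45037 probe sets and 18193 genes in all. There were 6 Affymetrix arrays, 3 of Hotair wildtype and 3 of Hotair knockout cells, and both genotypes had been backcrossed to C57BL6. No age beyond the newborn stage, no treatment and no further allele is given in the labels, and neither do they tell if replicates were separate mice or separate dishes. Values are log2 RMA summaries, so a difference of 1 is a doubling of signal, and levels of different genes are not compared because probes differ in brightness. *Hotair* was not analysed here, so the labels could not be checked by it.

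Id proteins carry the helix-loop-helix domain by which basic helix-loop-helix (bHLH) factors pair, but lack the basic region that binds DNA. They bind the widely expressed E proteins and keep them from pairing with tissue-restricted bHLH factors at E-box sequences. Their genes are classical early targets of bone morphogenetic proteins (BMPs), whose receptors phosphorylate *Smad1*, *Smad5* and *Smad9*, and Id proteins are known for holding back differentiation and for favouring proliferation. The 4 genes were chosen by a rule that compares their wild-type and knockout values on these 6 arrays, so these values are a description and no test of them is reported.

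The starts of 3 of the genes are shown as a description and were not set against the array values. No window was available for *Id1*. The RefSeq promoter table of build GRCm38.p6 matched *Id2*, *Id3* and *Id4*, each with a window of 300 bases that runs from 250 before to 50 after the start of the gene. The windows lie at chr12:25096043-25096342 on the minus strand (*Id2*), chr4:136143572-136143871 on the plus strand (*Id3*) and chr13:48260866-48261165 on the plus strand (*Id4*). Capitals mark, on either strand, the E-box CANNTG, the GC-rich element GGCGCC that BMP Smads bind, the Smad-binding letters CAGAC, the Egr element GCGNGGGCG and the GC box GGGCGG, and overlapping or adjoining matches run together.
Id2: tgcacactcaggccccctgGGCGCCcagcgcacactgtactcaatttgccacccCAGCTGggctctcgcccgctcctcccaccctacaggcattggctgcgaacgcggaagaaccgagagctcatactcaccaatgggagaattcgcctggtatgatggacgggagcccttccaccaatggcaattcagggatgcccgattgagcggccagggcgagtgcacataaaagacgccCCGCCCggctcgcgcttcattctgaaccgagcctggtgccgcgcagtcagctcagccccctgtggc
Id3: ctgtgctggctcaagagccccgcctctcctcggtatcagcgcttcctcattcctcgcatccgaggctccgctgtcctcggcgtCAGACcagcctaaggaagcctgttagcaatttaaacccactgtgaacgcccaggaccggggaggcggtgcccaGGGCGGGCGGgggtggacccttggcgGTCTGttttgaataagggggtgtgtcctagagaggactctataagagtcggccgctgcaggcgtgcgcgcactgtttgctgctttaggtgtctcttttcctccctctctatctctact
Id4: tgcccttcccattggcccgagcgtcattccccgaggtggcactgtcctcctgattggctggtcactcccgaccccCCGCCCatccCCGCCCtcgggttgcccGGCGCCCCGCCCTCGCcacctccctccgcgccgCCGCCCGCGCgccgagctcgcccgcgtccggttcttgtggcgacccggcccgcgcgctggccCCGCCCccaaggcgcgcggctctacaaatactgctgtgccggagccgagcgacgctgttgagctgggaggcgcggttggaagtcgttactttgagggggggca
The element GGCGCC occurred once in the *Id2* window and once in the *Id4* window, against 11.9% of the 32851 promoters of the table with at least 1 match. The *Id3* window held 2 matches to CAGAC, which occurs in 49.6% of promoters. The *Id4* window held 2 matches to the Egr element, present in 5.55% of promoters, and 5 GC boxes, and each Egr match overlapped a GC box. The *Id3* window held 2 GC boxes, which overlapped each other, and the *Id2* window 1, and 35.7% of promoters hold at least 1. An E-box was found in the *Id2* window only among these 3, and 72.3% of promoters hold one. The *Id4* window was the richest in G and C, at 73.3%, against 63.3% for *Id2*, 60.0% for *Id3* and a median of 52.7% over the table. The shares of promoters are over the whole table and were not matched for G and C content, which bears on the GC-rich letters. These matches describe letters in a short window and do not show that a factor binds there.

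Replicate 1 of both genotypes stood apart from the other 4 arrays. The proliferation list, 26 measured genes of cell division, had medians of −1.79 on wild-type replicate 1 and −1.32 on knockout replicate 1, relative to each gene's mean. On the other arrays they were 0.55 to 1.15. Knockout replicate 1 also had the largest excess of 3′ over 5′ control signal (log2), at 0.63 for *Actb* and 0.75 for *Gapdh* against at most 0.21 and −0.03 elsewhere. Such an excess can go with degraded RNA, but its size does not show degradation. Wild-type replicate 1 was not raised (0.12 and −0.18). Fibroblast markers, with 10 of 10 at a mean of at least 6, went with the label of the cells, while 0 of 8 endothelial markers reached that level. Each Id value is therefore given with and without the replicate 1 arrays. Whether proliferation or RNA quality plays a part in the Id values was not tested.

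*Id1* and *Id3* varied together and were lowest on knockout replicates 2 and 3. *Id1*, read by probe set 1425895_a_at, measured 12.10, 11.48 and 10.77 on wild-type replicates 1, 2 and 3, and 12.09, 8.98 and 9.77 on the knockout replicates. Knockout replicate 1 was thus level with the highest wild-type array, and the groups overlapped. *Id3*, read by 1416630_at, measured 12.66, 11.84 and 10.73 in wild-type cells and 12.12, 9.14 and 10.11 in knockout cells, again with knockout replicate 1 inside the wild-type range. The *Id1* means were 11.45 ± 0.67 for wild type and 10.28 ± 1.62 for knockout (SD, n = 3), so that they differed by −1.17. Those of *Id3* were 11.75 ± 0.97 and 10.46 ± 1.52, a difference of −1.29. In both genes the knockout SD exceeded the difference, and it came mostly from knockout replicate 1. Without the replicate 1 arrays the differences were −1.75 for *Id1* and −1.66 for *Id3*, and the 2 wild-type values of each gene lay above both knockout values.

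*Id2* had another order of arrays, with wild-type replicates 2 and 3 high and wild-type replicate 1 low. Its brightest probe set, 1422537_a_at, measured 8.75, 10.86 and 10.64 on the wild-type arrays and 9.46, 8.67 and 9.72 on the knockout arrays. The groups overlapped because wild-type replicate 1 lay among the knockout arrays. The means were 10.09 ± 1.16 for wild type and 9.28 ± 0.54 for knockout (SD, n = 3), so that they differed by −0.80, which was −1.56 without the replicate 1 arrays. The second probe set, 1435176_a_at, differed by −0.81 and ranged from 7.55 to 9.84 over the 6 arrays. The third, 1453596_at, was dim, with a mean of 4.79, and differed by −0.53. All 3 probe sets were below 0 in the difference of means and above 0 within replicate 1, at 0.71, 0.88 and 0.47.

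*Id4* was the one Id gene with a higher mean in knockout, and its wild-type arrays were the most spread. The brightest probe set, 1423259_at, measured 9.83, 4.91 and 7.85 on the wild-type arrays and 9.06, 11.01 and 10.89 on the knockout arrays. Wild-type replicate 2 was below that array's median of 5.62 over all probe sets, while wild-type replicate 1 lay above knockout replicate 1, so the groups overlapped. The means were 7.53 ± 2.48 for wild type and 10.32 ± 1.09 for knockout (SD, n = 3), so that they differed by 2.79. The difference was 1.48 without wild-type replicate 2 and 4.58 without both replicate 1 arrays. The other probe sets, 1423260_at and 1450928_at, differed by 2.18 and 2.51 and put wild-type replicate 2 lowest as well, at 6.16 and 4.14. The 3 probe sets correlated with each other at r = 0.95 to 0.99 over the 6 arrays, so the spread in wild type was seen by separate probes of the same arrays.

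**Figure D1:**
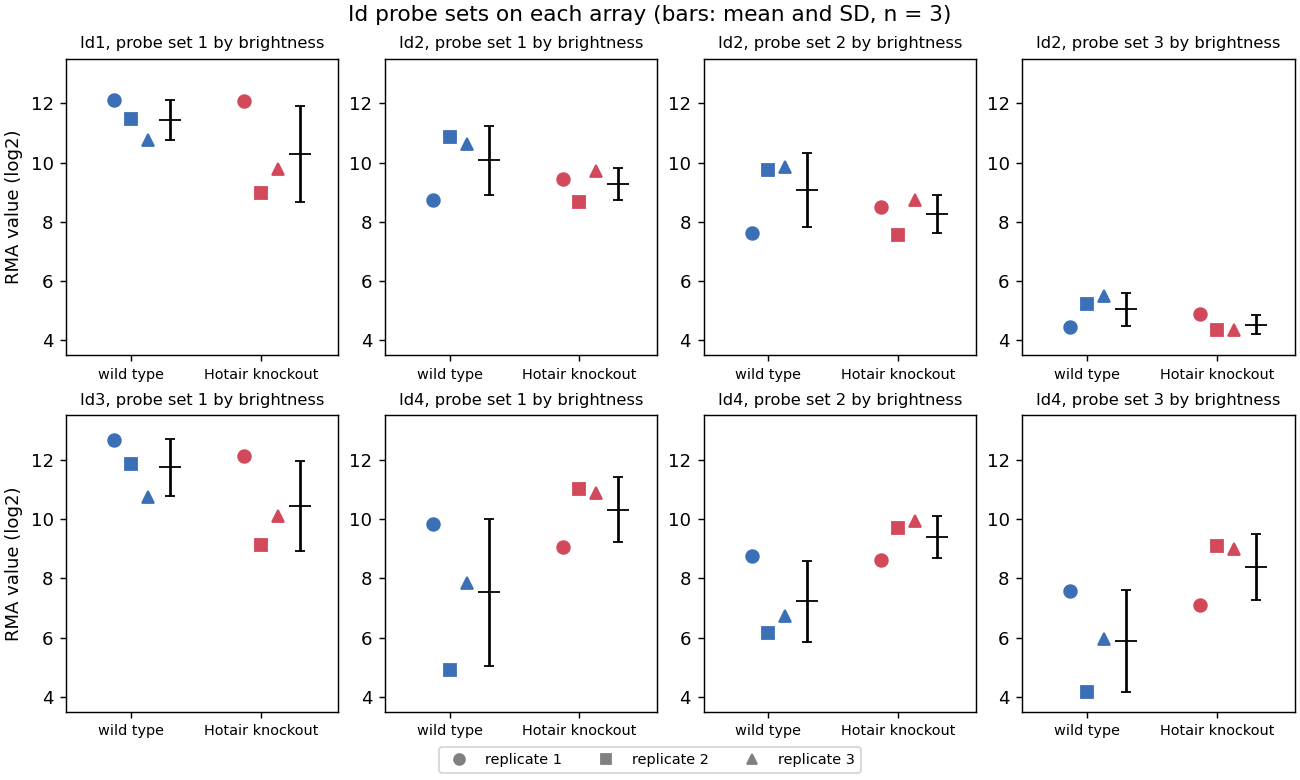
RMA values (log2) of the 8 *Id* probe sets on each of the 6 arrays, wild type in blue and *Hotair* knockout in red, with the marker shape giving the replicate number and black bars the mean and SD (n = 3). *Id1* and *Id3* are lowest on knockout replicates 2 and 3 (8.98 to 10.11), and the *Id4* probe sets are lowest on wild-type replicate 2 (4.14 to 6.16).

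In the brightest probe set of each gene the difference between arrays of the same number was largest in replicate 2. The labels do not say that equal numbers were matched, and the arrays do not show it for numbers 2 and 3. How a difference divides between numbers 2 and 3 therefore depends on the numbering. At replicate numbers 1, 2 and 3 the difference was −0.01, −2.50 and −0.99 for *Id1* and −0.54, −2.71 and −0.62 for *Id3*. It was 0.71, −2.19 and −0.93 for the brightest probe set of *Id2*, and −0.77, 6.11 and 3.05 for that of *Id4*. *Id2* and *Id4* thus changed sign between replicate 1 and the other numbers, in all 6 of their probe sets. *Id1* and *Id3* had one sign at all 3 numbers, with *Id1* at nearly 0 in replicate 1, and 30.5% of all genes had one sign at all 3. Of the 8 probe sets, 0 had groups that did not overlap over the 6 arrays, against 8.91% of all probe sets. Without the replicate 1 arrays 8 of 8 did not overlap, but so did 48.7% of all probe sets, and for the brightest probe set of each gene the counts were 4 of 4 against 55.3% of all genes, with 2 arrays a genotype. As these values chose the genes, nothing is read from the counts.

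**Figure D2:**
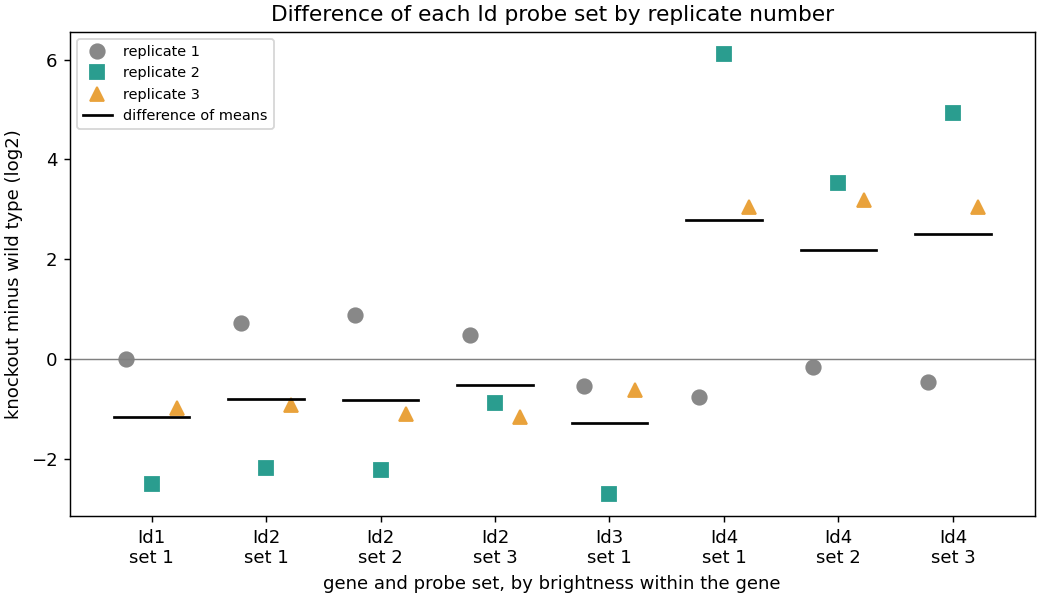
Knockout minus wild type (log2) of each *Id* probe set within replicate numbers 1, 2 and 3 (markers) and as the difference of the 3-array means (black lines). Replicate 1 lies at −0.01 for *Id1*, above 0 for *Id2* and below 0 for *Id4*, while replicates 2 and 3 lie below 0 for *Id1*, *Id2* and *Id3* and above 0 for *Id4*.

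For comparison with all 18193 genes, each gene was taken by its brightest probe set. A difference of at least 1 in size was found for *Id1*, *Id3* and *Id4* and for 5.50% of all genes. The median difference of the 4 *Id* genes was −0.98, with *Id4* alone above 0, and that of all genes was 0.01. Of all genes 10622 had a mean of at least 6, as the 4 *Id* genes had. Because these values chose the *Id* genes, nothing is read from either comparison. In the limma fit across all genes 0 of 18193 had an adjusted p under 0.05 (0% called, smallest adjusted p 0.743), and 1216 had an unadjusted p under 0.05. As the fit called no gene over the 6 arrays, it says nothing of the *Id* genes in particular. Over 45037 probe sets limma likewise called 0 (0%), with 2406 at an unadjusted p under 0.05.

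Likeness between genes was measured by Pearson's r of the log2 values over the 6 arrays, as a description. The points of every r are the same 6 arrays, of which the replicate 1 pair stood apart. *Id1* and *Id3* had r = 0.99, whereas *Id1* and *Id2* had r = 0.18 and *Id2* and *Id3* r = 0.13. *Id4* ran against *Id2*, with r = −0.82, and had r = −0.49 with *Id1* and −0.46 with *Id3*. The genes most like *Id1* among 3857 bright and variable genes were *Ccdc124*, *Coa3*, an assembly factor of cytochrome c oxidase, and *Ptk2b*, a focal adhesion kinase relative, with r of at least 0.995. For *Id3* they were *Mlycd*, malonyl-CoA decarboxylase, *Yif1a* and *Tln1*, the integrin-linked talin (r of at least 0.993). Each of these 6 genes was lowest on knockout replicate 2 and high on both replicate 1 arrays. For *Id2* they were *Ndnf*, a secreted neuron-derived factor, *Atp10a* and *Helb*, a DNA helicase (0.976 to 0.984). *Ndnf* spanned more than *Id2*, from 4.57 on wild-type replicate 1 to 12.13 on wild-type replicate 2. For *Id4* they were *Lrrc15*, a membrane protein of activated fibroblasts, *Medag* and *Iqgap2* (0.991 to 0.994), all lowest on wild-type replicate 2, where *Lrrc15* was 4.73 against 11.07 on knockout replicate 2. With 6 arrays such values are common: 156 genes had r of at least 0.95 with *Id1*, 95 with *Id3*, 59 with *Id4* and 11 with *Id2*.

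**Figure D3:**
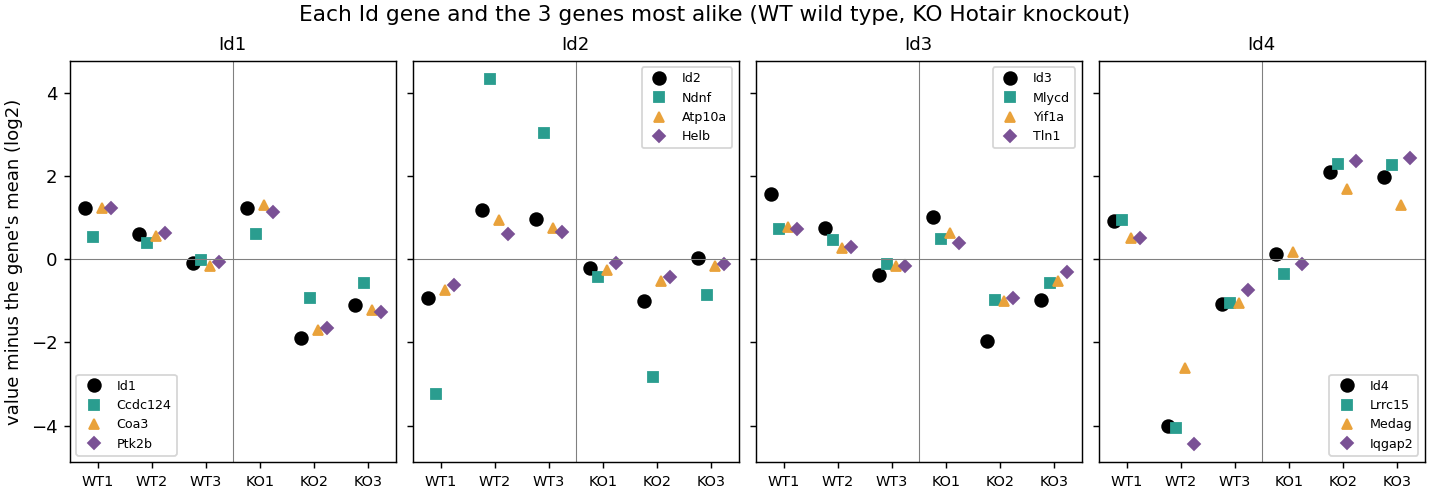
Log2 values minus each gene's mean over the 6 arrays for each *Id* gene (black) and the 3 genes with the highest Pearson's r to it (coloured). Arrays WT1 to WT3 are wild type and KO1 to KO3 knockout. *Id1* and *Id3* show one pattern, highest on the replicate 1 arrays, and *Id4* with *Lrrc15*, *Medag* and *Iqgap2* is lowest on WT2.

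The partners that Id proteins bind did not pass the test between genotypes. Of the 3 E proteins 0 passed, and 0 of 18193 genes did (0%). *Tcf3*, which encodes E12 and E47, differed by 0.38 ± 0.20 (SE), *Tcf4* by 0.03 ± 0.80 and *Tcf12* by 0.09 ± 0.20. *Tcf4* was low on the replicate 1 arrays, at 9.20 (wild type) and 9.91 (knockout), and lay between 11.31 and 11.72 elsewhere. The other probe sets of the E proteins disagreed in part: 2 of 3 for *Tcf3*, 2 of 6 for *Tcf4* and 3 of 5 for *Tcf12* pointed down. Of 43 measured tissue-restricted bHLH factors 7 had a mean of at least 6, 0 passed and the median difference was −0.04. *Twist1* and *Twist2*, mesenchymal factors of skin and skull, differed by −0.78 ± 0.40 and 0.65 ± 0.35, and the tendon factor *Scx* by −1.03 ± 0.64. The muscle factors *Myod1*, *Myf5* and *Myog* had means under 6. *Twist2* measured 10.93, 10.39 and 10.60 on the wild-type arrays and 10.56, 11.64 and 11.66 on the knockout arrays, so that knockout replicates 2 and 3 lay above all wild-type arrays.

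The BMP pathway upstream of the *Id* genes gave values in both directions. Of the ligands, *Bmp4* measured 5.83, 10.02 and 8.28 on the wild-type arrays and 7.51, 5.74 and 7.02 on the knockout arrays, a difference of −1.29 ± 1.10 (SE). Its order of arrays was that of *Id2* in part: wild-type replicates 2 and 3 high, wild-type replicate 1 and knockout replicate 2 low. *Bmp2*, named after its values were seen because its mean was under 6, measured 4.30, 7.27 and 8.44 on the wild-type arrays and 4.86, 4.14 and 4.05 on the knockout arrays. It was above the dim range only on wild-type replicates 2 and 3, and differed by −2.32 ± 1.05. *Gdf2* differed by −0.21 ± 0.14, and 5 of the 10 measured ligands lay above 0 and 5 below.

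Among the receptors and co-receptors the median difference was 0.30 over 11 measured genes, 6 above 0 and 5 below, and 0 passed. *Bmpr1a* and *Bmpr1b*, type I receptors, differed by 0.61 ± 0.62 and 0.75 ± 0.70 (SE). The type II receptors *Bmpr2* and *Acvr2a* differed by 0.30 ± 0.60 and 1.07 ± 0.51. At replicate numbers 1, 2 and 3 the difference was 1.15, 0.04 and −0.29 for *Bmpr2* and 1.09, 1.43 and 0.68 for *Acvr2a*. *Acvr1*, another type I receptor, stood at −0.21 ± 0.15 and the co-receptor endoglin (*Eng*) at −0.88 ± 0.42. *Rgma*, a membrane-anchored BMP co-receptor, measured 5.57, 5.83 and 5.87 on the wild-type arrays and 6.25, 6.51 and 7.0 on the knockout arrays. These groups did not overlap, but the values are dim and the difference of 0.83 ± 0.23 did not pass (limma adjusted p = 0.743). Its relative *Rgmb* differed by 0.55 ± 0.23, and 6 of its 6 probe sets lay above 0. Groups that do not overlap were found for 9.93% of all genes.

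The Smads that carry the BMP signal did not pass either. *Smad1* measured 10.46, 10.78 and 11.90 on the wild-type arrays and 10.58, 10.08 and 9.94 on the knockout arrays, a difference of −0.84 ± 0.41 (SE), and 3 of 3 probe sets lay below 0. *Smad5* differed by 0.33 ± 0.29 and the shared partner *Smad4* by −0.04 ± 0.14. *Smad9* had a mean under 6. The inhibitory *Smad6* and *Smad7* are themselves BMP targets. *Smad6* differed by 0.40 ± 0.46, while *Smad7* measured 10.05, 9.34 and 9.80 on the wild-type arrays and 10.36, 8.09 and 8.42 on the knockout arrays, a difference of −0.78 ± 0.62. Its knockout values thus had the order of *Id1* and *Id3*, high on replicate 1 and low on replicates 2 and 3.

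The antagonists and the other BMP targets likewise had 0 members past the test over the 6 arrays. Among 17 measured antagonists 7 lay above 0 and 10 below. *Bmper*, a secreted BMP-binding protein, differed by −1.87 ± 0.82 (SE) and *Crim1*, a membrane protein that binds BMPs, by −0.84 ± 0.24. *Crim1* had wild-type values of 10.49 to 10.76, all above its knockout values of 9.50 to 10.24. *Fst*, the activin and BMP antagonist follistatin, differed by 0.83 ± 0.93, and the decoy receptor *Bambi* by 0.77 ± 0.44. Of 16 other BMP targets, some also in the lists above, 5 had positive and 11 negative differences, and the median was −0.10. *Msx2*, a homeobox factor of limb and skin, measured 8.67, 9.30 and 8.46 on the wild-type arrays and 7.88, 5.16 and 5.97 on the knockout arrays, a difference of −2.47 ± 0.71, with groups that did not overlap. Its other probe set differed by only −0.09. *Junb*, an AP-1 factor, differed by −1.49 ± 0.82 and the Notch and BMP target *Hey1* by 0.68 ± 0.35.

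**Figure D4:**
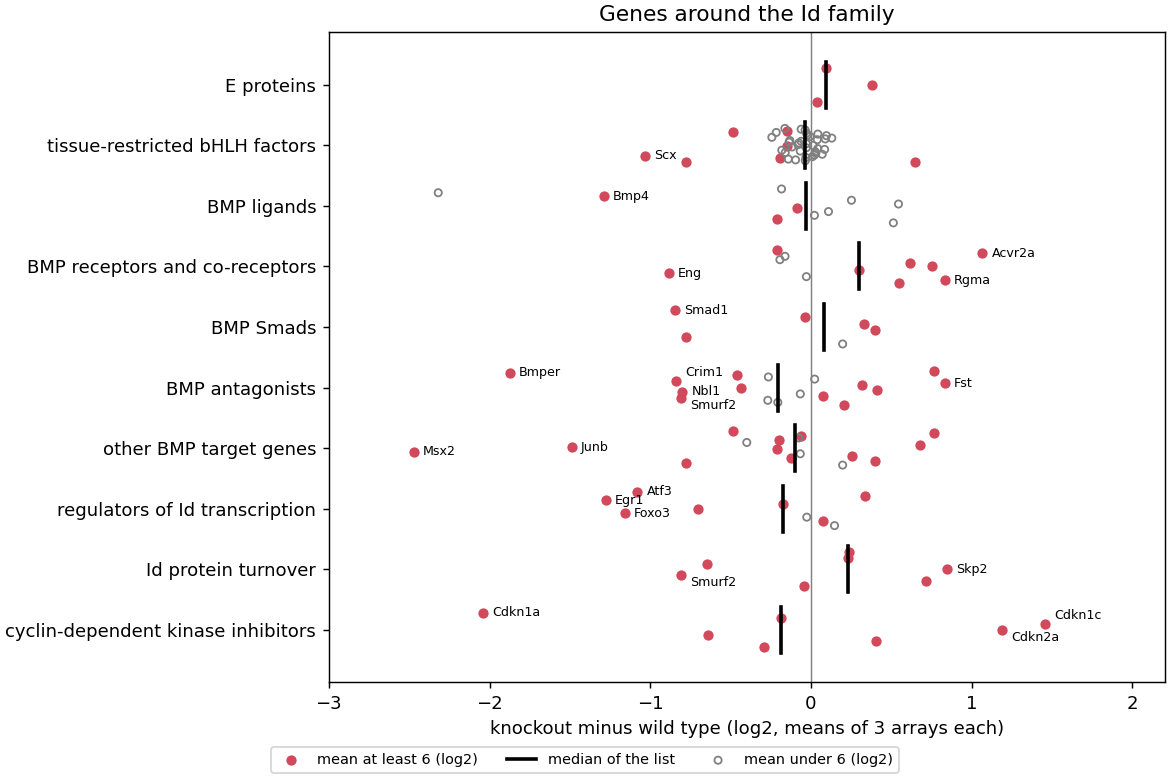
Knockout minus wild type (log2, means of 3 arrays each) of the measured genes in 10 lists around the *Id* family, filled where the mean is at least 6 and open where it is lower, with black bars at the list medians. The medians lie between −0.21 and 0.30, and *Msx2* (−2.47), *Cdkn1a* (−2.04) and *Cdkn1c* (1.46) are among the genes farthest from 0.

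Regulators of *Id* transcription and of Id protein stability gave no called gene over the 6 arrays. The serum-induced factor *Egr1* measured 12.44, 12.29 and 12.97 on the wild-type arrays and 12.78, 10.82 and 10.28 on the knockout arrays, a difference of −1.27 ± 0.66 (SE). Like *Id1* and *Id3* it was low on knockout replicates 2 and 3 and not on knockout replicate 1. *Atf3*, a stress-induced repressor of *Id1*, was high on wild-type replicate 3 (11.37 against 5.58 to 7.44 on the others) and differed by −1.08 ± 1.42. *Foxo3*, a forkhead factor, stood at −1.16 ± 0.57, *Creb1* at 0.34 ± 0.91 and *Smad3*, which carries TGF-beta signals, at 0.08 ± 0.31. Only 3 of 6 *Creb1* and 1 of 3 *Smad3* probe sets lay above 0, while 3 of 3 *Foxo3* probe sets lay below. *Usp1*, the deubiquitinase that stabilises Id proteins, differed by 0.71 ± 0.86 and was low on both replicate 1 arrays. At replicate numbers 1, 2 and 3 its difference was 0.72, 0.65 and 0.78, so this SE reflects the low replicate 1 arrays. *Usp1* did not pass in the fit blocked on replicate number either. The ubiquitin ligase genes *Skp2* and *Smurf2* stood at 0.85 ± 0.78 and −0.81 ± 0.40, and *Fzr1*, an activator of the anaphase-promoting complex, at −0.65 ± 0.37. The arrays read RNA, so Id protein levels were not measured.

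Cyclin-dependent kinase inhibitors, several of which E proteins activate and Id proteins hold back, lay in both directions and did not pass the test. *Cdkn1a* (p21) measured 13.63, 12.01 and 12.58 on the wild-type arrays and 13.63, 9.16 and 9.32 on the knockout arrays, a difference of −2.04 ± 1.28 (SE). *Cdkn2a*, the gene of p16 and Arf, measured 11.95, 9.85 and 11.54 on the wild-type arrays and 11.14, 12.41 and 13.35 on the knockout arrays, a difference of 1.19 ± 0.76. *Cdkn1c* (p57) differed by 1.46 ± 0.53 and *Cdkn2b* (p15) by −0.64 ± 0.20, each with groups that did not overlap. On knockout replicates 2 and 3 the *Cdkn1a* values were thus low together with *Id1* and *Id3*, and the *Cdkn2a* values high together with *Id4*. Of 7 genes 3 had positive and 4 negative differences, and the median was −0.19.

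Without the replicate 1 arrays limma called 2542 of 18193 genes (14.0%), 1375 higher (7.56%) and 1167 lower (6.41%), with 2 arrays a genotype. Of the 122 measured genes in the 10 lists around the *Id* family 18 were called, or 14.8%, which is near the share of all genes. Those higher in knockout were *Twist2*, *Rgma*, *Fst*, *Hey1*, *Usp1*, *Skp2* and *Cdkn1c*, and those lower were *Bmp2*, *Smad7*, *Nbl1*, *Bmper*, *Crim1*, *Smurf2*, *Msx2*, *Junb*, *Egr1*, *Foxo3* and *Cdkn1a*. *Nbl1*, a secreted BMP antagonist, was named after its values were seen. The differences of *Bmp2*, *Msx2* and *Bmper* were then −3.76, −3.31 and −3.14, and that of *Egr1* was −2.08. The replicate 1 arrays were left out because they stood apart, and the lists were chosen with earlier results known. These calls are therefore a description. Over all 6 arrays 0 of the 122 were called and 5 had an unadjusted p under 0.05.

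The fibroblast marker list, taken as a mean, was lowest on the same array as *Id4*, but its members were mixed. The mean log2 value of the 10 markers was 12.09, 10.37 and 11.40 on wild-type replicates 1, 2 and 3 and 12.40, 12.88 and 12.71 on the knockout arrays, with wild-type replicate 2 lowest and all knockout arrays above the wild-type ones. Wild-type replicate 2 was the lowest array for 5 of the 10 markers, among them *Dcn*, a matrix proteoglycan (6.87), and *Thy1*, a surface marker of fibroblasts (4.65), and the highest for *Col1a1* (12.79) and *Fn1* (14.32), genes of collagen and fibronectin. *Pdgfra*, a growth factor receptor, was lowest on wild-type replicate 1 (8.62), and the collagen gene *Col1a2* lay between 14.35 and 14.68 on all arrays. These single markers were picked with their values known. Smooth muscle markers, with 5 of 8 at a mean of at least 6, had means of 8.47 to 9.94 in wild type and 8.54 to 9.38 in knockout and were highest on the replicate 1 arrays. Of the other cell types, 3 of 8 macrophage, 3 of 8 keratinocyte, 2 of 8 skeletal muscle, 3 of 7 glial and melanocyte, 3 of 7 adipocyte and 2 of 8 cartilage markers had a mean of at least 6. Within each genotype the macrophage list was highest on replicate 1, at 5.94 (wild type) and 6.47 (knockout). So was the skeletal muscle list, at 5.67 and 5.36. The cartilage list was lowest in wild type on replicate 1, at 5.45. The adipocyte list was mixed, with 5 of 7 measured markers higher and 2 lower in knockout and a median difference of only 0.12. Its mean was higher on each knockout array than on any wild-type array. The large differences of *Lpl* and *Cebpa*, given below, weigh heavily in that mean. The mean log2 values were 5.29, 4.77 and 5.56 on the wild-type arrays and 5.96, 6.17 and 6.17 on the knockout arrays. Wild-type replicate 2 was lowest, as for *Id4*. *Lpl*, lipoprotein lipase, also named after its values were seen, measured 5.74, 4.57 and 8.82 on the wild-type arrays and 7.82, 12.21 and 11.74 on the knockout arrays, a difference of 4.22 ± 1.56 (SE) with groups that overlapped. *Cebpa*, an adipogenic transcription factor chosen likewise, differed by 1.84 ± 0.48 with groups that did not overlap. Of the 7 measured adipocyte markers 0 passed the test, and the defining marker *Adipoq* was dim on all arrays (3.47 to 3.81). Without the replicate 1 arrays 1 marker was called higher and 1 lower (28.6%), beside 14.0% of all genes. In these bulk cultures a change in the share of cells of a type and a change of RNA per cell cannot be told apart, and the part of cell composition in the *Id* values was not tested.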

How the data were processed

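RNA of 6 samples was read on Affymetrix mouse genome arrays. The files hold log2 values per probe set that the authors made with RMA, and the submitters' processing notes name R 2.11.1. RMA equalises the arrays, so a change of total RNA cannot be seen, and it compresses dim differences. Of 45101 probe sets 64 were controls, and 34945 named 1 gene, 932 several and 9160 none in the platform annotation. For each of 18193 genes the brightest of its single-gene probe sets was used.

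The genotype difference was fitted in R 4.3.3 by limma 3.58.1 (lmFit, eBayes, two-sided, Benjamini-Hochberg at 0.05), with genotype as the only term. A run on simulated data checked only that the mean estimate of known differences was near their size. Its noise was independent between arrays, so it says nothing of a shift shared by the replicate 1 arrays. Since replicates may be technical, p-values reflect no more than the spread among these samples. An exact permutation test of 3 against 3 arrays cannot go below 0.1. The number of arrays limits the precision. The Id genes and gene lists were chosen with earlier results of these data known. Named genes were the *Id* genes, in each list the called genes and the 2 largest differences each way at a mean of at least 6, all such E proteins, BMP receptors and Smads, *Egr1*, *Atf3* and *Usp1*, and the 3 genes most alike by r (mean at least 7, SD at least 0.5). The rule also covers the proliferation list, where *Ccne2* and *Mcm6* differed by 0.89 and 0.80, *Rrm2* and *Cdk1* by −0.64 and −0.17, and the list median was 0.50.

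Replicate numbers recur in both genotypes. Same-numbered arrays deviated together from their group means (r = 0.51, 0.39 and 0.35 for numbers 1, 2 and 3), so by rule they pair the arrays. Wild-type replicate 3 correlated better with knockout replicate 2 (0.43), and wild-type replicate 2 had r = 0.28 with knockout replicate 3. Deviations from a mean of 3 sum to 0, so a shift shared by the replicate 1 arrays also makes the others correlate. The values for numbers 2 and 3 thus do not show that these arrays pair by number. A limma fit blocked on replicate number also called 0 genes and 0 probe sets. The SEs given are from the fit without this block, so they include shifts shared by arrays of the same number. Alternatives were the block, the eBayes prior, array weights, a filter on dim features, renormalisation, another probe set rule, medians, and leaving out arrays.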

Additional observations from a re-analysis of the deposited data

How the results depend on the processing

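Over all 6 arrays limma called 0 genes and 0 probe sets, and 0 with the replicate block (smallest adjusted p 0.424), an intensity trend, a filter on dim features, renormalisation or, for genes, the mean over probe sets. The pairing changed no call. Array weights called 2101 genes (11.5%) but 0 probe sets. Leaving out 1 array gave 0 to 87 genes and 0 to 48 probe sets, the higher counts without knockout replicate 1. Leaving out both replicate 1 arrays gave 2542 genes and 1836 probe sets. With array weights the called members were 3 of 43 tissue-restricted bHLH factors, 1 of 10 BMP ligands, 3 of 11 BMP receptors, 3 of 17 antagonists, 3 of 16 other BMP targets, 1 of 9 regulators of *Id* transcription, 1 of 7 genes of Id turnover, 3 of 7 kinase inhibitors and 2 of 26 proliferation genes, beside 11.5% of all genes. Without both replicate 1 arrays they were 1, 1, 1, 5, 4, 2, 3, 2 and 5 of the same lists, and 1 of 6 BMP Smads, beside 14.0% of all genes. Leaving out 1 array gave 0 to 1 other BMP targets and 0 to 1 turnover genes, the calls again without knockout replicate 1. Leaving out 1 array moved the *Id* differences to between −2.07 and −0.52 (*Id1*), −1.47 and −0.41 (*Id2*), −2.12 and −0.63 (*Id3*) and 1.48 and 3.95 (*Id4*). Medians gave −1.71, −1.18, −1.73 and 3.05. All 4 signs of the difference held in these settings and in the others run for these genes. The settings share most of the arrays, and these values chose the genes, so this is no test. Within replicate 1 the brightest probe sets of *Id2* (0.71) and *Id4* (−0.77) had the opposite sign, and *Id1* was at −0.01. The cause of the differences between settings was not tested. Few arrays and dim probe sets limit what can be seen.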
